A study of Mus musculus with 6 samples.

Results

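The 300 brightest probes for long non-coding RNAs (lncRNAs) in mouse prefrontal cortex are described here. They were taken from 55674 array probes whose transcript carries a number of the NONCODE lncRNA database. Of these, 23651 were well above background on all 6 arrays, by the scanner software's own call, and had no outlier flag. The 300 with the highest mean over the wild type arrays were kept. Level here always means the log2 processed signal less that of the array's 75th percentile. The wild type levels therefore chose the probes, and every level and every difference from wild type given for them is a description. The arrays held 150305 non-control probes in all.

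The tissue was prefrontal cortex of male mice, 3 to 4 months old, of the outbred ICR stock. There were 3 wild type and 3 Nrf2 knockout samples, with 1 array for each. Nrf2, made from the gene Nfe2l2, is a transcription factor that switches on enzymes against oxidants and toxic compounds. Which part of Nfe2l2 was deleted is not in the labels, and they do not say that each sample came from its own animal. The p-values therefore measure only the spread between these samples, and this spread may be technical. The wild type arrays and knockout 1 were on slide 1, and knockouts 2 and 3 were alone on slide 2. For knockouts 2 and 3, slide and genotype cannot be told apart.

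LncRNAs are transcripts without a long open reading frame, many of them spliced and polyadenylated like messenger RNAs, and the brain transcribes an unusually wide range of them. Some act on chromatin, on splicing bodies or on translation, and many database entries have no known role. On this platform RNA is copied into antisense RNA labelled with Cy3, which pairs with DNA probes written in the sense of the transcript. A probe's brightness depends on its own sequence as well as on the RNA it captures, so the order of probes by level is an order of signals and not of RNA amounts. The files pair the NONCODE numbers with no gene name and no position.

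The 300 probes are 60 bases long and stand for 300 different transcripts with 300 different sequences, given here 5′ to 3′ as the scanner files hold them. The 10 brightest are shown first, from the brightest down, because they set the top of the range. The members' sequences were not compared with whole transcripts, such as ribosomal, mitochondrial or messenger RNAs. Whether a member's signal comes from a lncRNA is therefore not known here.

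NONMMUT110472: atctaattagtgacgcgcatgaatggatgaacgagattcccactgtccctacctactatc
NONMMUT100794: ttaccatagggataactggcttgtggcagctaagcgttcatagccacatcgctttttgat
NONMMUT121728: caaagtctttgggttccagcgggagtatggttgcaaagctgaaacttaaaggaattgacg
NONMMUT077486: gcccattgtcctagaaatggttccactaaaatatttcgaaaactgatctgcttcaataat
NONMMUT109353: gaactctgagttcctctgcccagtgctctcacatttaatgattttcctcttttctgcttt
NONMMUT000379: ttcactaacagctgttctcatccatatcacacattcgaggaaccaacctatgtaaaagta
NONMMUT098114: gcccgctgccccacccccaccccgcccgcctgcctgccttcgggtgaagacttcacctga
NONMMUT014371: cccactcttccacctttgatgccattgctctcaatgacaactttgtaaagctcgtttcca
NONMMUT114855: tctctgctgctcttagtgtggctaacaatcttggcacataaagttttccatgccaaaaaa
NONMMUT079655: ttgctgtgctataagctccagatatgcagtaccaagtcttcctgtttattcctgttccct

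The next 5 are the brightest of the 43 members that hold the 8 bases GTCTTCCC, given in capitals. This is the 8-base word that the members hold most often.

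NONMMUT134183: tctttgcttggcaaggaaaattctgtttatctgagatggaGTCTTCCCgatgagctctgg
NONMMUT084149: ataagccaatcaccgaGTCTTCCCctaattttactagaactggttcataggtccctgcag
NONMMUT100812: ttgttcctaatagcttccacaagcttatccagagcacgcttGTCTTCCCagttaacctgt
NONMMUT115035: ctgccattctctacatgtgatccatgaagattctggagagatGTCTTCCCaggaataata
NONMMUT117579: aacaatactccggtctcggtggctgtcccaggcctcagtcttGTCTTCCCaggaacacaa

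A further 4 members carry related words rich in C and T, with CCTCCC in capitals in the upper pair and TCTCCC in the lower pair.

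NONMMUT077782: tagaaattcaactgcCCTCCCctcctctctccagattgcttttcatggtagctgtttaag
NONMMUT075548: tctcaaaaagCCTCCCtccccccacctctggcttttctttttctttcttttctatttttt
NONMMUT137212: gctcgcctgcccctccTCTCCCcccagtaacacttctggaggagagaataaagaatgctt
NONMMUT126200: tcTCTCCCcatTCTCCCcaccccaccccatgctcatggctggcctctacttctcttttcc

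For comparison, 2 lncRNA probes that are no members hold GTCTTCCC in their last 8 bases.

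NONMMUT109601: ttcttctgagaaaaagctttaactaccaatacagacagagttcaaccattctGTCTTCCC
NONMMUT077750: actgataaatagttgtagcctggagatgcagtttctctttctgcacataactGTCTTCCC

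Before the results, the arrays themselves are given in ranges. Their 75th percentiles were 278 to 280.3 in wild type, 269 in knockout 1, and 248 and 245 in knockouts 2 and 3. The median local background was 23 to 24 on slide 1 and 18 to 19 on slide 2, 0 probes were saturated, and wild type 1 had 186 spots with an outlier flag against 13 to 36 on the others. The Nfe2l2 coding probe that stayed above background everywhere, called A here, measured 0.49, 0.39 and 0.35 in wild type against −3.74, −3.79 and −3.46 in the knockout. It differed by −4.08 on the log2 scale (SE 0.12, limma adjusted p = 6.13e-04), in the direction of the labels on every array, and by −2.42 after normexp background correction. Nfe2l2 coding probes B and C were well above background on 3 wild type and 0 knockout arrays. They differed by −7.94 (limma adjusted p = 0.00907) and −8.20 (limma adjusted p = 4.78e-06), sizes that rest on knockout signals near the background. Of 33 marker genes of 10 cell types or regions, 33 were well above background on all 6 arrays, excitatory neuron markers among them. Summed marker signals, in units of the array's 75th percentile, overlapped between the groups except for the erythroid markers, at 352 to 454 in wild type against 462 to 497 in the knockout. The striatal markers summed to 25.5 to 27.1 and 24.4 to 25.9, and the meningeal fibroblast markers to 10.1 to 16.0 and 6.90 to 10.6. The part of these cell types in the results was not tested.

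The members spanned a wide range of brightness in wild type cortex. Their wild type means ran from 4.01 to 9.62 with a median of 4.72 and quartiles of 4.32 and 5.45, so most of them lay near the lower end. The median over all 105923 tested probes was −1.04, and that over tested coding probes was 0.71. A probe was tested if all 3 arrays of wild type, or all 3 of the knockout, showed it well above background, and all 300 members met this by their choice.

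NONMMUT110472 was the brightest, at 9.62, 9.63 and 9.59 in wild type against 9.66, 9.55 and 9.61 in the knockout. NONMMUT100794 measured 9.22, 9.25 and 9.24 in wild type against 9.30, 9.10 and 9.11 in the knockout. NONMMUT121728 measured 9.12, 9.21 and 9.13, then 9.25, 8.90 and 8.92. In the last 2 of these probes, knockout 1 was the highest of the 6 arrays and knockouts 2 and 3 the lowest. The same order held for NONMMUT077486, at 9.06, 9.10 and 9.07 in wild type against 9.12, 8.70 and 8.69 in the knockout.

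NONMMUT109353 measured 8.93, 8.91 and 8.84 in wild type against 8.90, 8.43 and 8.30 in the knockout. NONMMUT000379 measured 8.56, 8.65 and 8.60 against 8.59, 8.37 and 8.34. NONMMUT098114, a probe with a long run of C-rich sequence, measured 8.58, 8.53 and 8.62 against 8.58, 8.24 and 8.24. In each of these, knockout 1 lay within the wild type range and both slide 2 arrays lay below it. The last 3 of the 10 were not alike: NONMMUT014371 measured 7.42, 7.39 and 7.50 in wild type against 7.48, 7.48 and 7.69 in the knockout. NONMMUT114855 measured 7.52, 7.42 and 7.27 against 7.53, 7.48 and 7.42. NONMMUT079655 measured 7.32, 7.48 and 7.31 against 7.27, 6.99 and 6.99, and was the only one of the 10 in which every knockout array lay below every wild type array.

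The lower edge of the list was not marked by any gap. The last 3 members, NONMMUT019670, NONMMUT015175 and NONMMUT000335, had wild type means of 4.015, 4.008 and 4.006. The probes just outside it, NONMMUT008218, NONMMUT119845 and NONMMUT124988, had means of 4.006, 4.000 and 3.999. The SDs over the 3 wild type arrays at these 6 ranks were 0.043 to 0.20, far larger than the steps between them. Ranking by the mean over the knockout arrays instead kept 265 of the 300, and ranking over all 6 arrays kept 283.

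Replicates were close in wild type, all on slide 1, and wider in the knockout, whose arrays lay on both slides. The knockout SDs therefore include any difference between the slides. The median SD of a member was 0.077 over the 3 wild type arrays and 0.25 over the 3 knockout arrays. For tested coding probes these were 0.11 and 0.13, and for tested lncRNA probes outside the 300 they were 0.15 and 0.22. The narrowest wild type spread was in NONMMUT123143, at 5.79 on each of the 3 arrays (SD 4.2e-04), while its knockout values were 5.66, 4.66 and 4.63. The next narrowest, NONMMUT135773, lay at 5.59 on each wild type array and at 5.64, 5.40 and 5.34 in the knockout. In both, the slide 2 arrays were the lowest. The narrowest knockout spreads belonged to NONMMUT123960, at 3.94, 3.96 and 3.97 against 4.35, 4.20 and 4.38 in wild type, and to NONMMUT022482, at 4.68, 4.69 and 4.72 against 4.58, 4.63 and 4.73. The groups did not overlap in the former and overlapped in the latter.

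The widest wild type spreads were in NONMMUT000736 (SD 0.53), described below with Pantr1, and NONMMUT090861 (SD 0.36). The widest knockout spreads, with SDs of 2.03 and 1.46, were in NONMMUT015378 and NONMMUT090861. These sequences are shown because these 2 members also had the lowest differences between knockout and wild type of all 300.

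NONMMUT015378: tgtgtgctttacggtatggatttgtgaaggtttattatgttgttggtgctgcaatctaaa
NONMMUT090861: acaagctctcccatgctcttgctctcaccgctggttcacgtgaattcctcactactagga

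NONMMUT015378 measured 4.67, 4.40 and 4.55 in wild type against 4.54, 0.96 and 1.10 in the knockout. Knockout 1 was inside the wild type range, and the difference lay wholly in the slide 2 arrays. Its log2 fold change was −2.34 (SE 0.92, limma adjusted p = 0.326), against 0.0025 (SE 0.15) from slide 1 alone and −3.51 (SE 0.11, limma adjusted p = 7.27e-04) without knockout 1. Over all alternatives its limma adjusted p ranged from 7.27e-04 to 0.999. NONMMUT090861 measured 4.97, 4.27 and 4.75 in wild type against 4.46, 2.02 and 1.86 in the knockout, with the same arrays low. Its log2 fold change was −1.88 (SE 0.69, limma adjusted p = 0.317), against −0.20 (SE 0.30) from slide 1 and −2.72 (SE 0.22, limma adjusted p = 0.00303) without knockout 1, with a range of 0.00303 to 0.968 over all alternatives.

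Knockout against wild type, the members as a list measured lower in the knockout, although no single one passed the test. Limma called 0 of the 300 at an adjusted p under 0.05, where 10 of 105923 tested probes were called (0.00944%). The lowest adjusted p among members was 0.212. At an unadjusted p under 0.05, 184 members were lower (8.94% of all tested probes were) and 0 were higher (6.11%). The unadjusted count of lower members was 119, 120 and 113 without wild type 1, 2 and 3, where 6.32%, 5.38% and 5.62% of tested probes were lower. It was 95 without knockout 2 (4.95% of tested probes), 92 without knockout 3 (4.47%) and 214 without knockout 1 (16.8%). Less RNA per cell and fewer cells of a type cannot be told apart in whole tissue.

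The differences had a median of −0.46 on the log2 scale, with quartiles of −0.73 and −0.12 and a range from −2.34 to 0.39. The median over all tested probes was 0.028, and that over tested lncRNA probes outside the 300 was −0.042. Of the members, 264 lay below 0 (45.1% of all tested probes did) and 36 above. Every knockout array lay below every wild type array in 178 members, where 10.4% of tested probes did so, and above in 1 member, where 11.1% did. A high wild type value helped to choose a probe, so this direction is not independent of the choice. Members chosen by the knockout mean had a median of −0.34, with 242 below 0, and those chosen over all 6 arrays −0.40, with 253 below 0.

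The shift was smaller in knockout 1, on slide 1, than in knockouts 2 and 3, on slide 2. The median level of the members was 4.75, 4.76 and 4.74 in wild type, 4.64 in knockout 1, 4.30 in knockout 2 and 4.18 in knockout 3. Measured from each member's own wild type mean, the median deviation was −0.15 in knockout 1, −0.56 in knockout 2 and −0.60 in knockout 3. Both slide 2 arrays lay below all 4 slide 1 arrays in 208 members (20.2% of tested probes), and above them in 6 (24.8% of tested probes). Within slide 1, knockout 1 lay below every wild type array in 205 members (26.0% of tested probes). The members were thus low on slide 2, and to a smaller extent on the knockout array of slide 1.

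Coding probes of like brightness had medians near 0 on the same arrays. The 5066 coding probes at least as bright as the dimmest member had median deviations of −0.051, 0.072 and 0.054 in knockouts 1, 2 and 3, and a median difference of 0.023. The 398 circular RNA (circRNA) probes of that brightness, which detect back-spliced loops, had a median difference of 0.025 but a lower quartile of −0.31. In 105 of them (26.4%) every knockout array lay below every wild type array, and 104 were lower at an unadjusted p under 0.05 against 26 higher. The corresponding shares of all tested probes were 10.4%, 8.94% and 6.11%. No test of the difference between these sets was run.

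With slide as a block, which rests the comparison on knockout 1, the members' median difference was −0.15, 43 had an unadjusted p under 0.05 and were lower (3.24% of tested probes), and limma called 0. Without knockout 1, limma called 183 members, all of them lower, where 9.61% of 105716 tested probes were called lower and 3.16% higher, and the median was −0.58. That count compares wild type on slide 1 with knockout on slide 2 only.

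By brightness, the difference was of similar size through most of the list. The 50 brightest had a median wild type level of 6.49 and a median difference of −0.38. Ranks 51 to 100, 101 to 150 and 151 to 200 had median differences of −0.51, −0.51 and −0.47. Ranks 201 to 250 had −0.38, and ranks 251 to 300, at a median level of 4.10, had −0.26.

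The sequences of the members shared a bias that the choice by brightness did not ask for. Their median C content was 25% against 20% over all lncRNA probes, and their median A content 25% against 30%, while median GC content was 43.3% against 41.7%. An unbroken run of at least 13 C or T bases occurred in 53 members (17.7%), in 2.08% of all lncRNA probes and in 3.95% of the 23651 that passed the detection rule. Those 23651 had a median C content of 21.7%, A content of 28.3% and GC content of 43.3%, the last equal to the members'. The longest such run had a median of 8 bases in members and 6 in all lncRNA probes, and the longest in any member had 24 bases.

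Short words recurred, most of them made only of C and T. Words of 6 bases were taken in turn by their excess over all lncRNA probes, each time among the members not yet covered, and they were chosen on these members. CTTCCC was held by 57 members (19%, against 2.02% of all lncRNA probes). Next came CCTCCC, which covered 46 more. The third, TCTCCC, covered 33 of the remaining members. A further 17 held CCTGCC in addition to these. After that 14 members held TCTCTC without any earlier word. The last, CACACA, was found in 13. Over all lncRNA probes, CCTCCC was in 1.35%, TCTCCC in 1.74%, CCTGCC in 1.33%, TCTCTC in 2.56% and CACACA in 3.16%. Over all lncRNA holders of CACACA the median wild type level was −4.77, against −5.01 for the other lncRNA probes. Together the words covered 180 members and left 120 with none of the 6. The share of all lncRNA probes with any of the 6 was not counted. The words overlap one another in some probes, so in the sets of the 6 words each member is counted under the earliest it holds. The other strand did not show the excess: GGGAAG, the reverse complement of CTTCCC, was in 4 members (1.33%) and in 2.09% of all lncRNA probes.

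The members with and without these words differed in how they compared between the genotypes. The 180 with a word had median deviations of −0.21, −0.71 and −0.74 in knockouts 1, 2 and 3, and a median difference of −0.58. The 120 without one had −0.027, −0.082 and −0.17, and a median difference of −0.10. Every knockout array lay below every wild type array in 153 of the 180 (85.0%) and in 25 of the 120 (20.8%), where 10.4% of tested probes did so. Within slide 1, knockout 1 lay below all wild type arrays in 162 (90.0%) and 43 (35.8%), where 26.0% of tested probes did so. Without knockout 1, limma called 140 of the 180 and 43 of the 120 lower, where 9.61% of tested probes were. Their wild type medians were close, at 4.71 and 4.81. The words were chosen after the levels were seen, and the difference between the 2 sets was not tested.

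The TCTCCC set had the lowest median difference, −0.80, with deviations of −0.16, −1.07 and −1.22 in knockouts 1, 2 and 3. NONMMUT126200, with this word at 2 places, measured 7.25, 7.15 and 7.25 in wild type against 7.12, 6.17 and 6.003 in the knockout. NONMMUT137212 measured 7.33, 7.24 and 7.24 against 7.11, 6.40 and 6.32. In both, every knockout array was below every wild type array and the slide 2 arrays were the lowest. The CTTCCC set had a median difference of −0.62 with deviations of −0.31, −0.79 and −0.72, so knockout 1 departed further there. The CCTCCC set had −0.50, and in 41 of its 46 members every knockout array lay below every wild type array (10.4% of tested probes). Its members NONMMUT077782 and NONMMUT075548 measured 6.49, 6.36 and 6.54, and 6.43, 6.31 and 6.46, in wild type, and 6.25, 5.87 and 5.86, and 6.28, 5.99 and 5.92, in the knockout. The remaining 3 sets, in the order given above, had median differences of −0.44, −0.43 and −0.71. Over all holders well above background on all 6 arrays, the shifts were smaller. The 853 lncRNA probes with TCTCCC, members included, had deviations of −0.14, −0.049 and −0.20 (other lncRNA probes −0.0055, −0.011 and −0.12). Coding probes with it had −0.095, 0.024 and −0.025 (other coding probes −0.023, 0.053 and 0.058). With CTTCCC, lncRNA probes had −0.17, −0.17 and −0.32 (other lncRNA probes −0.0058, −0.0084 and −0.12). Coding probes with CTTCCC had −0.12, 0.027 and 0.0015 (other coding probes −0.023, 0.053 and 0.058).

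The longer word GTCTTCCC stood out for how few probes hold it. It occurred in 61 of the 55674 lncRNA probes (0.110%), and 43 of these 61 were members (14.3% of the 300). Its reverse complement GGGAAGAC occurred in 76 lncRNA probes, none of them a member (0 of 300), with a median wild type level of −5.46. NONMMUT134183, the brightest holder, measured 6.94, 7.19 and 7.13 in wild type against 6.95, 6.49 and 6.43 in the knockout. NONMMUT084149 measured 7.03, 7.06 and 7.05 against 6.93, 6.47 and 6.50. NONMMUT100812 measured 6.76, 6.88 and 6.69 against 6.64, 5.98 and 6.09. In all of these the slide 2 arrays were lowest, and knockout 1 was within the wild type range only in NONMMUT134183. NONMMUT115035 measured 6.51, 6.50 and 6.44 against 6.29, 5.66 and 5.65. NONMMUT117579 measured 6.37, 6.41 and 6.38 against 6.24, 5.26 and 5.35.

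All 43 member holders had a difference below 0 (45.1% of tested probes), and in 41 of them every knockout array lay below every wild type array (10.4%). Their median difference was −0.63, with deviations of −0.34, −0.80 and −0.74 in knockouts 1, 2 and 3. The word was picked from the members, so its share among them is a description.

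Holders of GTCTTCCC in the other probe classes, which no brightness rule chose, were bright too. The 37 coding probes that hold it had a median wild type level of 4.09 against −0.12 for the other coding probes. The 39 circRNA holders had 5.25 against −1.39, and the 15 holders among probes for Ensembl transcripts 4.33 against −4.19. The 61 lncRNA holders had 4.67 against −5.00, which restates the choice by brightness, since 43 of them are members. These probes target transcripts of different classes and share the word by sequence. Whether holders outside the members overlap one another in sequence was not searched, so some may read the same RNA.

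The holders outside the lncRNA class also measured lower on the knockout arrays. Coding holders had median deviations of −0.27, −0.60 and −0.65 in knockouts 1, 2 and 3, where the other coding probes had −0.024, 0.053 and 0.058. CircRNA holders had −0.24, −0.51 and −0.60, where the other circRNA probes had 0.038, 0.094 and 0.12. LncRNA holders had −0.38, −0.82 and −0.82, against −0.010, −0.010 and −0.12 for the other lncRNA probes. All these deviations are over probes well above background on all 6 arrays, 59 of the lncRNA holders among them. In each class knockouts 2 and 3 lay further from wild type than knockout 1. The part of the word in the members' difference was not tested.

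Words with 1 base changed went with lower signals. Positions are counted from 1 at the 5′ end of GTCTTCCC. Of the 24 single changes, 21 were held by at least 20 lncRNA probes, and their median wild type levels ran from −5.85 (C3A) to 0.37 (T5C). T4C, with a median of −0.22 over 28 probes, and C8T, with −0.88 over 116 probes, came next below T5C, which 30 probes held. All 21 medians lay below the 4.67 of the unchanged word, but that word was picked from probes chosen for these same levels, so its place above its variants was largely fixed by the choice.

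The place of the word in the probe went with the signal as well. Over all classes, the median wild type level was 4.24 where the word began at bases 1 to 13, 4.66 at 14 to 26, 5.52 at 27 to 39 and 5.10 at 40 to 52. These pool members with other probes, and the classes parted. At 27 to 39 the medians were 4.96 over 12 lncRNA probes (8 members), 5.04 over 9 coding probes and 7.88 over 15 circRNA probes. At 40 to 52 they were 5.93 over 12 lncRNA probes (11 members), 3.51 over 9 coding probes and 2.35 over 9 circRNA probes. In the 10 probes that hold it in their last 8 bases the median was −4.59 and the highest level 2.47, and none was a member. NONMMUT109601 measured −7.13, −7.17 and −7.36 in wild type and was not well above background on any array. NONMMUT077750 measured −4.80, −6.48 and −5.44 and was well above background on 4 of 6 arrays. Of the 18 lncRNA holders that were no members, 3 held the word in the last 8 bases.

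Signal shared by sequence was looked for between members and all other probes. A stretch of at least 20 identical bases, on either strand, linked 33 members to another probe and left 267 with none. Only probe sequences were searched, so a match to a part of a transcript that no probe covers was not seen. On the same strand it linked 26 members, 12 of them to a probe for a RefSeq gene. Counting either strand, 6 members shared a stretch with another member. Stretches of at least 40 bases were found for 7 members.

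The sequence of NONMMUT000736 is shown because it could be tied to a known lncRNA: it shares 59 bases with the RefSeq probe for Pantr1, on chromosome 1, a lncRNA transcribed beside the gene of a brain transcription factor. Of 50 names of known lncRNAs looked for, this was the only one matched (1 of 50).

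NONMMUT000736: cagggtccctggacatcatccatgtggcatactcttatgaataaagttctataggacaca

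NONMMUT000736 measured 5.89, 4.91 and 5.03 in wild type against 5.91, 5.35 and 5.73 in the knockout. Wild type 1 and knockout 1 were the highest, and the groups overlapped. Its difference, 0.39 (SE 0.28, limma adjusted p = 0.492), was the highest of all members. It was 0.20 without wild type 2 and 0.69 without wild type 1. The RefSeq probe for Pantr1 gave 0.43 (limma adjusted p = 0.440), from a wild type mean of 5.31 against 5.28 for the member.

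Probes that share at least 40 bases with a member on the same strand gave like differences. NONMMUT118071 and NONMMUT137343, both members, share 42 bases, had wild type means of 4.94 and 4.90 and differences of −0.43 and −0.40. Shorter stretches went either way. NONMMUT084677, no member, shares 39 bases with NONMMUT137343, and had a wild type mean of 2.76 and a difference of −0.024. The members NONMMUT073786 and NONMMUT089156 share 35 bases and had wild type means of 4.09 and 4.08, with differences of −0.17 and −0.16. NONMMUT132785 shares 52 bases with NONMMUT132786, which is no member at 3.64, and their differences were −0.85 and −0.83. NONMMUT083864 shares 53 bases with a RefSeq non-coding probe of Rnf227 on chromosome 11. It measured 5.14, 5.43 and 5.42 in wild type against 5.19, 5.43 and 5.37 in the knockout, and the partner had 5.38 in wild type, with differences of −0.0015 and 0.018. Probes of one pair read overlapping sequence and are not independent.

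Only 1 member shares at least 40 bases with a probe of the opposite strand. That member, NONMMUT074986, measured 4.16, 4.20 and 4.20 in wild type against 4.04, 3.09 and 3.02 in the knockout. NONMMUT077278 holds 55 of the same bases on the other strand and had a wild type mean of −6.08, well above background on 1 of 6 arrays. With shorter stretches the levels on opposite strands could be closer: the members NONMMUT076935 and NONMMUT093743 share 21 bases that way, at wild type means of 6.22 and 4.48 and differences of −0.62 and −0.50.

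On the same strand, NONMMUT000591, with a wild type mean of 6.65, shares 27 bases with probes for the glycolytic enzyme gene Gapdh. Those probes differed by 0.038 and 0.12 between the genotypes, and the member by −0.36. NONMMUT117461 shares 21 bases with a probe for Rps27a, a ribosomal protein gene. Signal from such transcripts in the members was not tested.

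Genome positions could be given for the 5 members whose whole sequence lies in a RefSeq start window, from 250 bases before to 50 after a gene's start on GRCm38.p6. NONMMUT122192 lies at chr6:47755085-47755144, upstream of Gm52862 and on the same strand, and is shown because its difference was the second highest.

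NONMMUT122192: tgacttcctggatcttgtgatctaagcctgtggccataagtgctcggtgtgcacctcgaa

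NONMMUT122192 measured 4.83, 4.43 and 4.42 in wild type against 4.69, 4.95 and 4.71 in the knockout, with overlapping groups and a difference of 0.22 (SE 0.15, limma adjusted p = 0.456). NONMMUT013120 lies at chr11:120625151-120625210, upstream of Sirt7, the gene of a nucleolar deacetylase, on the same strand. It measured 4.41, 4.43 and 4.42 in wild type against 4.29, 4.28 and 4.35 in the knockout, a small difference of −0.11 (SE 0.079, limma adjusted p = 0.478) without overlap. NONMMUT116098 lies at chr4:156234901-156234960, upstream of Klhl17, the gene of an actin-binding protein of neurons, on the opposite strand. It measured 5.64, 5.59 and 5.66 in wild type against 5.53, 5.01 and 4.84 in the knockout, a difference of −0.50 (SE 0.18, limma adjusted p = 0.317). The other 2, upstream of the predicted genes Gm41353 and Gm31577, had differences of −0.95 (SE 0.29) and −0.71 (SE 0.17), and their groups did not overlap.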

How the data were processed

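The authors' deposited scanner files give a linear intensity for every spot, background-subtracted and detrended per the file headers. The headers name version 12.0.3.1 of Agilent Feature Extraction, and the submitters' processing notes name 10.7 and limma. The authors' deposited value table, used as an alternative, was read as log2 because each column correlated at r of at least 0.99986 with the log2 scanner signal. How it was made is not stated in the labels or headers.

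Levels are log2 processed signal minus the array's 75th percentile. The 4974 control spots took no part, and outlier spots were set to missing in fits. Limma 3.58.1 in R 4.3.3 (lmFit, eBayes, no covariate, two-sided) compared 3 knockout with 3 wild type arrays, with Benjamini-Hochberg adjustment over 105923 tested probes. The fit was tested on simulated data drawn without any difference between slides, so that test does not bear on the slides. With 3 arrays a group, precision is limited. Words and shared stretches were counted with Python 3.11.15 and pandas 2.3.3. RefSeq names and windows are on GRCm38.p6.

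The members, the lists and the marker genes were chosen with earlier results of these data known. Probes are named by rule: the 10 brightest, the 3 ranks on either side of the list's lower edge, any with an adjusted p under 0.05 or else the 2 highest and 2 lowest differences, the 2 largest and 2 smallest SDs in each group, and matches to 50 known lncRNAs. Probes shown for a word, a shared stretch or a start window were chosen after their values were seen. Alternatives were background correction (normexp), quantile and median scaling, the value table, filters, slide, replicate block and leaving out each array.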

Additional observations from a re-analysis of the deposited data

How the results depend on the processing

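Limma called 0 members under every alternative except without knockout 1, so that leaving out each array in turn gave 0 to 183. The median difference was −0.15 with slide as a block and −0.15 from slide 1 alone, −0.10 without the members that hold any of the 6 words (an alternative chosen after seeing the data), and −0.58 to −0.37 on leaving out each array. Under normexp (offset 50), quantile scaling, scaling to the array median and the value table it was −0.46, −0.45, −0.40 and −0.46. Scaling to the array median moved the median of all tested probes to 0.079. The difference of NONMMUT015378 turned from −2.34 to 0.0025 with slide as a block and from slide 1 alone. Without knockout 1, NONMMUT015378 and NONMMUT090861 passed the threshold. The list of 300 shared 292 to 300 probes with that under each other scaling or background correction, 295 with spots of an outlier flag kept, and 296 to 297 without any 1 wild type array.

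With the replicate number as a block, the members' median difference was −0.46 and 0 were called, with 170 lower at an unadjusted p under 0.05 (8.70% of tested probes), and Nfe2l2 probe A kept its difference of −4.08 but missed the threshold (adjusted p = 0.0520). The deviations of same-numbered arrays correlated at −0.019, −0.056 and 0.042, and those of differently numbered arrays at −0.029 to 0.055. With 3 arrays a group and the knockout arrays on both slides, this cannot decide whether the numbers pair the samples. Leaving out each array gave −4.18 to −4.01 for this probe, and normexp gave −2.42.

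The median wild type level of GTCTTCCC holders under normexp, quantile scaling and the value table was 4.42 to 4.67 for lncRNA probes, 4.06 to 4.28 for coding probes and 4.86 to 5.25 for circRNA probes.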
